A study of Mus musculus with 2 samples.

Results

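The genes of the translation initiation and elongation factors were described in G1E-ER4 cells, a mouse erythroid line. They are the protein-coding genes whose symbol starts with Eif1 to Eif6, Eef1 or Eef2, without the eIF2 kinases (symbols that start with Eif2ak). The rule gave 63 genes of 43346 Ensembl genes in the tables, of which 21474 are protein-coding. The cells are immortalized, were labelled male and postnatal, and derive from G1E cells, which lack Gata1. In G1E-ER4 cells Gata1 was restored as a fusion with the hormone-binding part of an estrogen receptor, and the labels describe differentiation as induced by estradiol (E2), with neither dose nor time. RNA described as polyadenylated was sequenced in 2 libraries, labelled biological replicates 1 and 2, and both form 1 group. Both cite the same biosample, so the spread between them may be technical. No conditions can therefore be compared, and the comparisons are between genes and between the libraries.

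Initiation factors bring the small ribosomal subunit to an mRNA and find its start codon. eIF1 and eIF1A hold the subunit open for scanning, eIF2 delivers the initiator tRNA as a GTP complex that eIF2B regenerates, and eIF3 is the multi-subunit platform on the small subunit. eIF4F binds the cap through eIF4E and unwinds the leader with the helicase eIF4A, both carried by the scaffold eIF4G. eEF1A and eEF2 then deliver aminoacyl-tRNA and move the ribosome along. Erythroid cells depend on this machinery for globin, and in them a shortage of haem acts on eIF2 through the kinase HRI.

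Promoter sequences are shown first, for genes to which the results below return. They are the eIF4F subunit genes Eif4e and Eif4g1, which stood far apart in level, and 3 of the genes that differed between the libraries. Those 3 were the ones with a pyrimidine run after the start. RefSeq windows (build GRCm38.p6) from 250 bases before to 50 bases after an annotated start matched 47 of the 63 genes by symbol, with 61 windows. Eif3e, Eef1akmt3, Eif4e3, Eif2b3, Eif4g2, Eif4ebp1, Eif3j2, Eef1d, Eif4e1b, Eef1akmt1, Eif4ebp3, Eif3i, Eef1g, Eif3h, Eif1a and Eif6 had none. The windows were searched for 3 motifs: the E-box CACGTG, which reads the same on both strands and is bound by factors such as MYC and USF, the GATA motif AGATAA on both strands, and a run of at least 8 pyrimidines (C or T) on the sense strand within the 50 bases after the start. A pyrimidine run can share its end bases with either of the other motifs. Pyrimidines near the start are known from the 5′ TOP mRNAs, whose translation is controlled by mTOR, but a TOP sequence begins at the cap, which these windows do not locate. The sequences below run 5′ to 3′ from 100 bases before to 30 bases after the start, with E-boxes and pyrimidine runs after the start in capitals.
Eif4e, chr3:138527168-138527297, plus strand: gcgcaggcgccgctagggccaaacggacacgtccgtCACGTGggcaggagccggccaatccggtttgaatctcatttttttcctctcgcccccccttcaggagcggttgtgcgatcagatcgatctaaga
Eif4g1, chr16:20672627-20672756, plus strand: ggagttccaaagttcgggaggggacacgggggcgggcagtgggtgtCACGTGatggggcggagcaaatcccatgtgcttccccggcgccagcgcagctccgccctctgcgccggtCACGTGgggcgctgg
Eef2, chr10:81176531-81176660, plus strand: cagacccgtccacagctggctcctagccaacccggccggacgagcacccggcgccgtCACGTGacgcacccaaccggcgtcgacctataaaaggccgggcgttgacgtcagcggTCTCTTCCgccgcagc
Eif3k, chr7:28981859-28981988, minus strand: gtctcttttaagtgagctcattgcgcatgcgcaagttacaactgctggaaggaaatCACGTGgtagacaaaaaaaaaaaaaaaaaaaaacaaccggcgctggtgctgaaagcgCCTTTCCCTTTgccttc
Eif3l, chr15:79075123-79075252, plus strand: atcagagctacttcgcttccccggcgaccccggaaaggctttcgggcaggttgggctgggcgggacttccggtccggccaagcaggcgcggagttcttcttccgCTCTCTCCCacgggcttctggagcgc

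The E-box lay 64 to 59 bases before the start of Eif4e (the second of its 2 annotated starts), 43 to 38 bases before that of Eef2 and 44 to 39 bases before that of Eif3k. Eif4g1 held a pair, 54 to 49 bases before the start and at bases 16 to 21 after it. The pyrimidine run took bases 15 to 22 of Eef2, 14 to 24 of Eif3k and 5 to 13 of Eif3l. An E-box was found in a window of 12 of the 47 factor genes (25.5%), against 9.24% of 16317 protein-coding genes with a window and 12.9% of 6712 detected ones. The 12 were Eef2, Eef2k, Eif1b, Eif3a, Eif3f, Eif3k, Eif4a1, Eif4e, Eif4g1, Eif4h, Eif5a and Eif5a2. They include genes for the cap-binding protein, the helicase and the main scaffold of eIF4F. The related Eif4a2, Eif4a3, Eif4b, Eif4e2 and Eif4g3 had windows with no E-box, and Eif4g2, Eif4e3 and Eif4e1b had no window. The median level of the 12 was 304 TPM, against 53.2 TPM for the 35 factor genes with a window and no E-box, yet Eif4e and Eif5a2 were among the lowest of all. The GATA motif stood in windows of 1 factor gene (2.13%), against 10.9% of protein-coding genes and 7.20% of detected ones. A pyrimidine run stood in those of 13 (27.7%), against 19.6% and 17.5%. These are matches of letters, not sites of binding, and no test was run on them.

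The factor genes were abundant as a class. Levels are TPM (transcript abundances scaled to a fixed total), which divide by transcript length so that genes can be set side by side. They depend, however, on which transcript models carry the reads, as described below. Of the 63 genes, 57 (90.5%) were detected, that is at 1 TPM or more in both libraries, against 39.0% of all protein-coding genes. Their median level was 88.9 TPM, against 0.0250 TPM for all protein-coding genes and 20.5 TPM for the detected ones. Summed, they took 2.01% of all TPM in replicate 1 and 1.95% in replicate 2, a mean of 1.98% ± 0.0415 (SD, n = 2). Eif5a, Eif4g2, Eef2, Eif4g1 and Eif4ebp1 together held 56.2% of that sum in each library. By gene level 25 genes were at 100 TPM or more in both, and no such share was taken over all protein-coding genes. The 25 include Eif1ax and Eif2b4. By complete coding models, described below, Eif1ax had 2.01 and 1.10 TPM and Eif2b4 34.5 and 33.8 TPM. Of the Eif4g2 level, 94.4% in replicate 1 and 95.8% in replicate 2 fell on 1 model of 742 bases with an incomplete coding region. Fewer cells that express a gene and less of its RNA in each cell cannot be told apart in these bulk libraries.

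**Figure D1:**
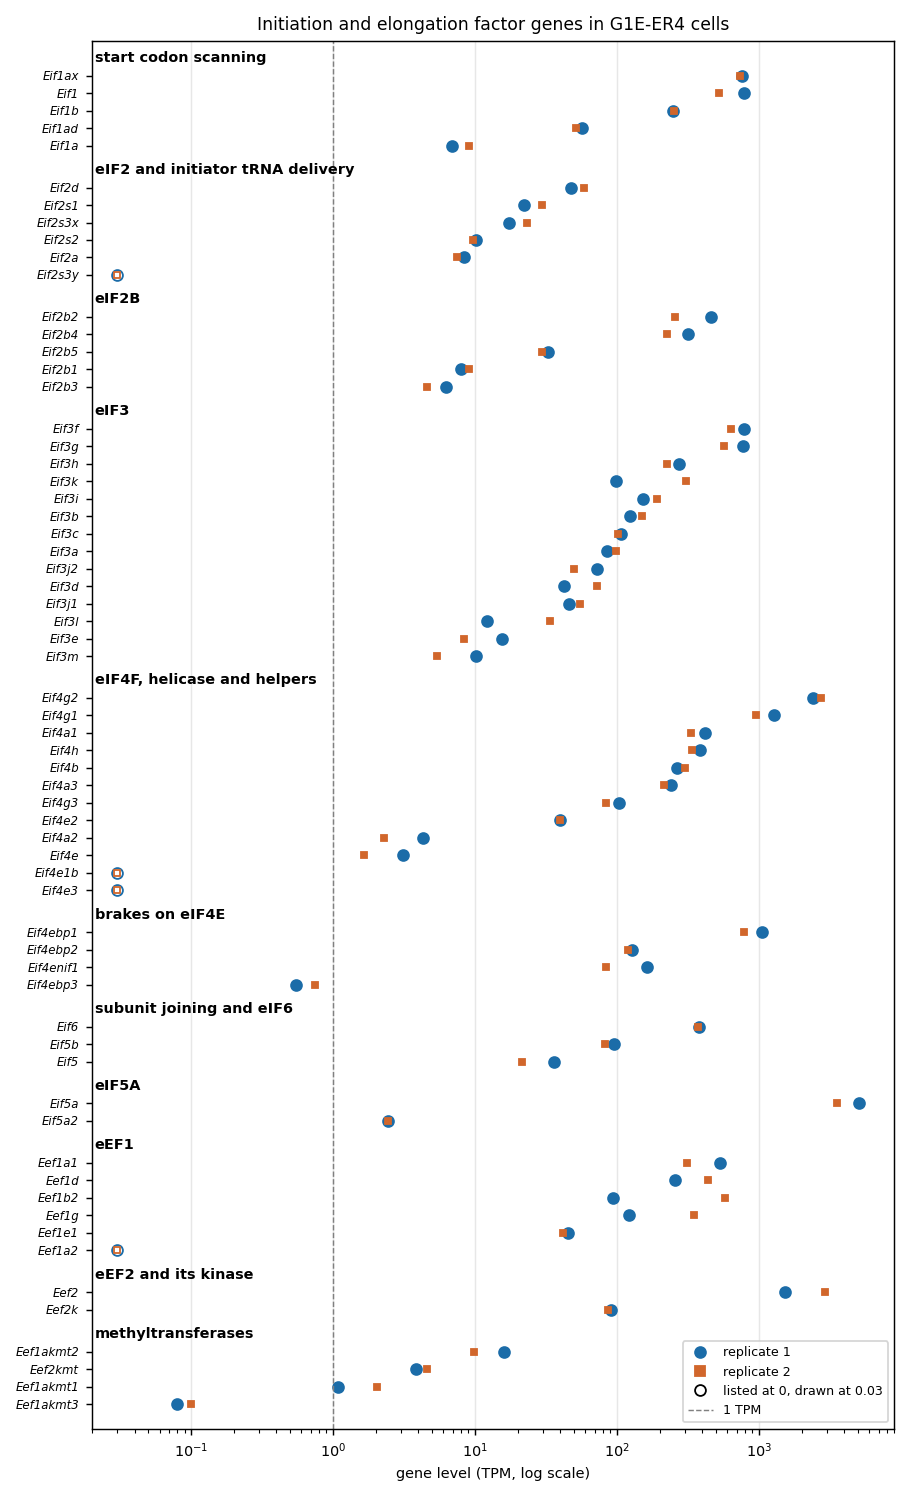
Level of each factor gene in TPM on a log axis, grouped by factor, with replicate 1 as circles and replicate 2 as squares. Open symbols are listed at 0 and drawn at 0.03, and the dashed line marks 1 TPM. Levels run from 0 for 4 genes to 5060 and 3576 TPM for Eif5a, and Eif4e, at 3.11 and 1.66 TPM, lies far left of Eif4ebp1, at 1047 and 782 TPM.

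Eif5a was the most abundant factor gene. It encodes eIF5A, the only protein known to carry hypusine, which helps ribosomes through stalling peptide motifs such as proline runs. On chr11:69916714-69921958 of mm10 (minus strand), it had 5060 TPM in replicate 1 against 3576 TPM in replicate 2, a mean of 4318 ± 1049 (SD, n = 2), and ranked 27th by mean TPM among protein-coding genes. Its paralog Eif5a2, which is expressed in few adult tissues, had 2.43 and 2.46 TPM in the same libraries. Eif5a exceeded Eif5a2 2082-fold in replicate 1 and 1453-fold in replicate 2. Both enzymes that make hypusine were detected: Dohh, the hydroxylase, had 306 and 226 TPM, and Dhps, the synthase, 40.5 and 36.6 TPM.

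Among the scanning factors, Eif1 and Eif1ax were highest by gene level, but the level of Eif1ax rested on a model that does not encode eIF1A. Eif1, whose protein guards start codon choice, had 781 TPM in replicate 1 against 525 TPM in replicate 2. Its paralog Eif1b had 247 and 252 TPM, so that Eif1 exceeded it 3.17-fold in replicate 1 and 2.09-fold in replicate 2. Eif1ad, which encodes a relative of eIF1A, had 56.9 and 51.8 TPM. Eif1ax, the X-linked eIF1A gene, had 754 and 739 TPM, and Eif1a, the autosomal copy, 6.87 and 9.02 TPM. Of the Eif1ax level, 99.7% in replicate 1 and 99.8% in replicate 2 fell on Eif1ax-202, a model of 416 bases that GENCODE annotates as a retained intron. The complete coding models of Eif1ax held 2.01 and 1.10 TPM. By complete coding models Eif1ax stood at 0.293 of Eif1a in replicate 1 and 0.122 in replicate 2, which reverses the order that the gene levels give (110-fold and 81.9-fold higher for Eif1ax).

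The subunits of eIF2 stood lower than most other initiation factors, each at 29.6 TPM or less in both libraries. Eif2s1, the alpha subunit that the eIF2 kinases phosphorylate, had 22.3 TPM in replicate 1 against 29.6 TPM in replicate 2. Eif2s2, the beta subunit, had 10.1 and 9.70 TPM. Eif2s3x, the X-linked gamma subunit that binds the initiator tRNA, had 17.4 and 23.1 TPM. The alpha subunit was thus the highest of the 3 in both libraries and the beta subunit the lowest. Eif2s3y, the Y-linked gamma gene, had 0 counts in both, which allows up to 0.0435 CPM (counts scaled to the library total) in replicate 1 and 0.0578 CPM in replicate 2, although the line was labelled male. Ddx3y, a Y-linked helicase gene, likewise had 0 counts. Eif2d, an alternative initiator tRNA factor that also acts in recycling, had 47.6 and 58.7 TPM. Eif2a, another alternative factor, had 8.38 and 7.48 TPM and overlaps Serp1 on the opposite strand, which held 26138 and 14099 counts against 853 and 599 for Eif2a.

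eIF2B, the exchange factor that recharges eIF2 with GTP and is the target of phosphorylated eIF2, was uneven by gene level. Eif2b2 (beta) had 457 TPM in replicate 1 against 256 TPM in replicate 2, and Eif2b4 (delta) 317 and 224 TPM. Eif2b5 (epsilon, the catalytic subunit) had 32.7 and 29.8 TPM. Eif2b1 (alpha) had 7.94 and 9.01 TPM, and Eif2b3 (gamma) 6.25 and 4.58 TPM. Short models raised the leading pair. Eif2b2-206, a retained intron of 338 bases, took 84.1% and 54.6% of the Eif2b2 level, and a model of 512 bases that GENCODE M21 does not list took 85.9% and 83.4% of that of Eif2b4, which overlaps Snx17 on the opposite strand. By complete coding models the levels were 56.4 and 105 TPM for Eif2b2, 34.5 and 33.8 TPM for Eif2b4, and 32.7 and 29.8 TPM for Eif2b5.

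eIF3 had all 14 of its genes detected, but subunits of the complex did not stand at equal mRNA levels. Eif3f, a subunit with an MPN domain, had 791 TPM in replicate 1 against 636 TPM in replicate 2, and Eif3g, which binds RNA, 776 and 568 TPM. Eif3m, another subunit of the same octamer as Eif3f, had 10.1 and 5.39 TPM. The highest of the 13 subunit genes without Eif3j2 exceeded the lowest 78.7-fold in replicate 1 and 118-fold in replicate 2, a mean of 98.4 ± 27.8 (SD, n = 2). The complete coding models gave 89.2-fold and 127-fold.

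The other eIF3 subunits lay in between. Eif3h, the partner of Eif3f in the MPN pair, had 273 and 224 TPM. The core subunits Eif3a, Eif3b and Eif3c, which form the scaffold, were close to each other: Eif3a had 85.0 and 97.7 TPM, Eif3b 123 and 149 TPM, and Eif3c 107 and 101 TPM. Eif3i, which joins Eif3b and Eif3g, had 152 and 193 TPM, of which the complete coding models held 57.6 and 62.1 TPM. Eif3d, which can bind the cap itself, had 42.7 and 72.7 TPM. Eif3e had 15.5 and 8.33 TPM, Eif3k 98.4 and 307 TPM, and Eif3l 12.2 and 33.7 TPM. Eif3k and Eif3l, peripheral subunits that bind each other, both had far lower levels in replicate 1 than in replicate 2, while Eif3e and Eif3m went the other way. Eif3j1 had 46.3 and 55.0 TPM and Eif3j2 72.8 and 49.7 TPM. This pair, for the loosely bound subunit that helps ribosomes split, cannot be separated with confidence, because 94.9% of the 31-base words of Eif3j2 and 53.6% of those of Eif3j1 occur in other genes, mostly in each other.

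In eIF4F the scaffold and helicase mRNAs were abundant and the cap-binding subunit was nearly the lowest detected factor. Eif4e, on chr3:138526179-138559696 of mm10 (plus strand), encodes the protein that holds the cap. It had 3.11 TPM in replicate 1 against 1.66 TPM in replicate 2, a mean of 2.38 ± 1.03 (SD, n = 2), from 511 and 204 counts, and ranked 56th of the 63. Eif4e2 (4EHP), a cap-binding relative that represses translation, had 39.7 and 39.6 TPM, 12.8-fold and 23.8-fold above Eif4e. Eif4e3 and Eif4e1b, the other relatives, had 0 counts in both libraries. Comparisons of Eif4e with genes other than its own relatives were chosen after the values were seen. Among them, Eif4g1 exceeded Eif4e 408-fold by gene level in replicate 1 and 572-fold in replicate 2, and 110-fold and 185-fold by complete coding models.

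The levels of the eIF4G genes depended on which models were counted. Eif4g1, the main scaffold, had 1268 TPM in replicate 1 against 949 TPM in replicate 2, and Eif4g3, its paralog, 103 and 84.4 TPM. Eif4g2 (DAP5), a relative that lacks the eIF4E-binding site, had 2402 and 2751 TPM, 1.89-fold and 2.90-fold above Eif4g1. A single model of 742 bases with an incomplete coding region, Eif4g2-203, took 94.4% and 95.8% of the Eif4g2 level and 79676 and 70504 of its 97875 and 81219 counts. By complete coding models Eif4g2 had 54.8 and 42.0 TPM, against 343 and 307 TPM for Eif4g1 and 20.0 and 33.2 TPM for Eif4g3. The order of Eif4g2 and Eif4g1 thus turned round, to 0.160 in replicate 1 and 0.137 in replicate 2.

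Of the helicases, Eif4a1 had 416 TPM in replicate 1 against 334 TPM in replicate 2, and its paralog Eif4a2 had 4.31 and 2.29 TPM. Eif4a1 exceeded Eif4a2 96.5-fold and 146-fold, and 83.9-fold and 94.8-fold by complete coding models. Eif4a3, which serves in the exon junction complex, had 242 and 213 TPM. By gene level Eif4a1 exceeded it 1.72-fold and 1.57-fold, whereas by complete coding models it stood at 0.679 and 0.366 of Eif4a3, since the processed transcripts Eif4a1-208 and Eif4a1-211 held 40.7% and 30.2% of the Eif4a1 level in replicate 1 and 41.1% and 32.1% in replicate 2. The helicase helpers Eif4h, with 383 and 336 TPM, and Eif4b, with 267 and 302 TPM, were close in both libraries.

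Among the brakes on eIF4E, Eif4ebp1 and Eif4ebp2 were far more abundant than Eif4e itself, and Eif4ebp3 was lower than Eif4e in both libraries. Eif4ebp1 encodes 4E-BP1, which holds eIF4E away from eIF4G until mTOR phosphorylates it. It had 1047 TPM in replicate 1 against 782 TPM in replicate 2, all on 1 complete coding model, which is 337-fold and 471-fold above Eif4e. Eif4ebp2 had 128 and 119 TPM, 41.3-fold and 71.8-fold above Eif4e. Eif4ebp3 had 0.550 and 0.750 TPM from 19.5 and 20.2 counts, with 66.4% of its 31-base words shared with another gene. Eif4ebp1 thus exceeded Eif4ebp2 8.16-fold and 6.56-fold and Eif4ebp3 1904-fold and 1042-fold. Eif4enif1 (4E-T), which carries eIF4E into the nucleus and to processing bodies, had 163 and 83.6 TPM by gene level and 8.67 and 15.5 TPM by complete coding models.

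Late initiation and ribosome joining gave mixed levels. Eif6, which keeps free large subunits apart from small ones, had 377 TPM in replicate 1 against 374 TPM in replicate 2, with 140 and 125 TPM on complete coding models. Eif5, the GTPase activator of eIF2, had 35.8 and 21.4 TPM. Eif5b, the GTPase of subunit joining, had 96.1 and 82.6 TPM, of which a retained intron model of 5788 bases, Eif5b-202, took 88.8% and 91.2%. Its complete coding model held 10.7 and 7.23 TPM, and Eif5b also overlaps Rev1 on the opposite strand.

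The elongation factors were led by Eef2, which encodes the translocase. Eef2, on chr10:81176631-81182498 of mm10 (plus strand), had 1530 TPM in replicate 1 against 2923 TPM in replicate 2, a mean of 2227 ± 985 (SD, n = 2), all on its complete coding model. Eef2k, the kinase that inhibits eEF2, had 90.8 and 86.9 TPM by gene level and 20.2 and 27.7 TPM by complete coding models. Eef1a1, the main gene for the tRNA carrier eEF1A, had 535 and 314 TPM, and Eef1a2, the muscle and neuron form, 0 counts in both. Of the 31-base words of Eef1a1, 51.5% occur in 28 other genes, mostly processed pseudogenes, and those pseudogenes with a row in the tables held 118 and 59.7 counts against 38308 and 19516 for Eef1a1. Eef2 exceeded Eef1a1 2.86-fold in replicate 1 and 9.30-fold in replicate 2, a comparison chosen after the values were seen.

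The subunits of eEF1B, the exchange factor of eEF1A, were all lower in replicate 1 than in replicate 2. Eef1b2 (beta) had 93.9 TPM in replicate 1 against 575 TPM in replicate 2, Eef1d (delta) 257 and 435 TPM, and Eef1g (gamma) 121 and 350 TPM. Complete coding models held 29.6 and 83.2 TPM of Eef1b2, whose leading model is a processed transcript, 225 and 254 TPM of Eef1d, and 119 and 348 TPM of Eef1g, so that for Eef1d the libraries were closer by this measure. Eef1e1, an auxiliary protein of the tRNA synthetase complex, had 45.4 and 41.7 TPM. Of the enzymes that methylate elongation factors, Eef1akmt2 had 16.0 and 9.85 TPM, Eef2kmt 3.85 and 4.62 TPM, Eef1akmt1 1.08 and 2.03 TPM, and Eef1akmt3 0.0800 and 0.100 TPM.

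The libraries were set against each other by the ratio of replicate 1 to replicate 2 in estimated counts, scaled by edgeR's TMM. The 59 factor genes at 10 or more counts on average were used, and the 4 left out, Eef1a2, Eif2s3y, Eif4e1b and Eif4e3, had 0 counts in both. Ratios are given with exact 95% conditional binomial (Clopper-Pearson) intervals, which cover counting error only, and no test between 2 libraries of 1 group was possible. The ratio was below 0.5 for 6 of the 59 (10.2%), against 6.98% of the 9865 protein-coding genes past the same count minimum. It was above 2 for 0 of the 59, against 1.24% of the protein-coding genes. Within 1.5-fold were 46 (78.0%), against 78.5%, and the median ratio was 0.985, against 1.01. The shares within 1.5-fold were thus close to each other.

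The 6 genes were all higher in replicate 2. Eef1b2 had 5382 counts in replicate 1 and 16775 in replicate 2, a ratio of 0.225 (0.218 to 0.232). Eif3k had a ratio of 0.295 (0.284 to 0.307), Eef1g 0.320 (0.314 to 0.327), and Eif3l 0.338 (0.316 to 0.362). Eef2, with 270916 and 387985 counts, had 0.489 (0.486 to 0.491), and Eef1akmt1, with 44.0 and 63.0 counts, 0.489 (0.325 to 0.730). The intervals of Eef1b2, Eif3k, Eef1g, Eif3l and Eef2 lay wholly below 0.5, and that of Eef1akmt1 did not. Scaled by library totals, which raise every log2 ratio by 0.11, Eef2 and Eef1akmt1 came within 2-fold. Counts of complete coding models, a measure explained below, gave the same 6 genes and Eif2b2. Of the 31-base words of Eef1g, 47.6% occur in other genes, so its counts are less certain.

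**Figure D2:**
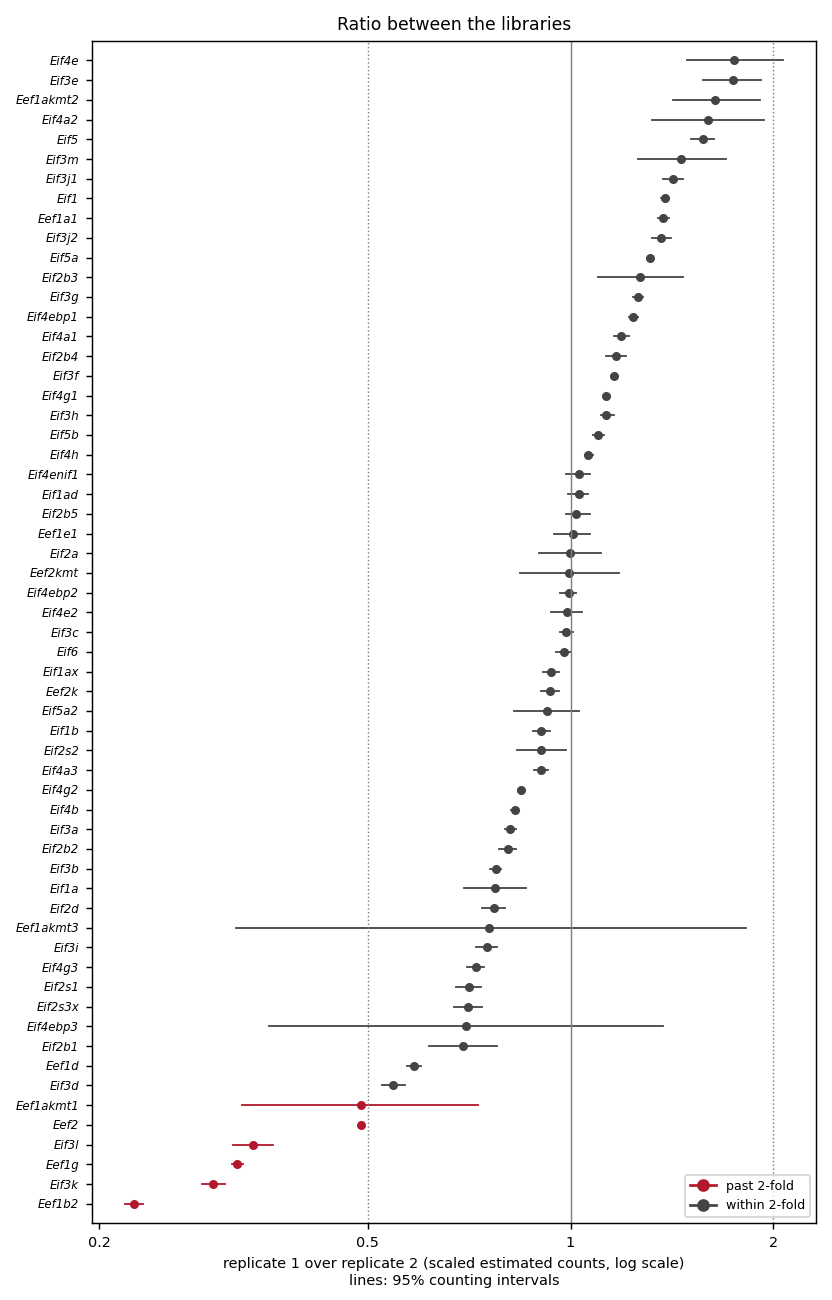
Ratio of replicate 1 to replicate 2 in TMM-scaled estimated counts for 59 factor genes, sorted, on a log axis; lines are 95% counting intervals, dotted lines mark 0.5 and 2, and genes past 2-fold are red. The red points run from 0.225 for Eef1b2 to 0.489 for Eef2 and Eef1akmt1, while no gene lies above 2.

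Other factor genes leaned the same way without passing 2-fold, among them Eif3d at 0.546 (0.525 to 0.568) and Eef1d at 0.585 (0.571 to 0.599). By counts of complete coding models Eef1d stood at 0.845. Eef1d-201, a model with an incomplete coding region, took 3.75% of its TPM in replicate 1 and 35.1% in replicate 2. At the other end stood Eif4e at 1.75 (1.49 to 2.07), Eif3e at 1.74 (1.57 to 1.92), Eif4a2 at 1.60 (1.32 to 1.94) and Eif5 at 1.57 (1.51 to 1.63). Eef1akmt2 had 1.64 (1.42 to 1.91), but 0.762 by complete coding models, which turns the direction. Within eIF3, 7 genes were above 1 and 7 below, and within eEF1, 2 above and 3 below. Of all 59 factor genes, 25 were above 1 and 34 below. These counts include genes whose interval spans 1, such as Eef1e1 at 1.01 (0.946 to 1.07). The shares above 1 are set beside those of all protein-coding genes below, by GC content. All 3 expressed eIF2 subunits and Eif2d were below 1, while Eif2a, at 0.997 (0.897 to 1.11), had an interval on both sides of 1. Of 81 cytosolic ribosomal protein genes, chosen by symbol after these values were seen, 21 had a ratio below 0.5 and 0 above 2, with a median of 0.852 and a range of 0.0400 to 1.35. Of the 6 factor genes, Eef2, Eif3k and Eif3l held a pyrimidine run after the start, Eef1b2 had a window with no run and no E-box, and Eef1g and Eef1akmt1 had no window. Over the 11 expressed genes with such a run the median ratio was 0.814, and over the 34 with a window and no run it was 0.996. The ratio was below 1 for 7 of the 11 and for 18 of the 34, and below 0.5 for 3 and 1. Other genes with a run stood above 1, such as Eif5a at 1.31 and Eif3f at 1.16. Ratios by run were not taken over all protein-coding genes. The part of these features in the ratios was not tested.

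GC content moved with both level and ratio. GC was taken from the longest coding transcript of each gene in GENCODE M21. Across the 59 factor genes Spearman's rho between GC and mean TPM was 0.43, against 0.30 across the 9845 protein-coding genes with a value, and by complete coding models 0.53 against 0.32. Genes share both libraries and are not independent, so these are descriptions with no test. The 19 factor genes under 45% GC had a median of 20.2 TPM, against 215 TPM for the other 40. Over the protein-coding genes the medians were 5.20 TPM for 2293 genes under 45% GC and 19.1 TPM for the other 7552. Eif4e (40.5% GC), Eif4a2 (40.2%) and Eif5a2 (38.8%) were all in the low-GC group, and Eif5a (55.0%) and Eef2 (57.0%) in the other. The other group also held genes with still lower means than these 3 low-GC genes. Among them were Eif4ebp3 (53.5% GC, 0.650 TPM), Eef1akmt3 (50.5%, 0.0900 TPM) and Eef1akmt1 (51.5%, 1.55 TPM). Between GC and ratio rho was -0.33 over the factor genes and -0.25 over the protein-coding genes. Under 45% GC the ratio was above 1 for 52.6% of factor genes, against 72.1% of protein-coding genes. At 45% GC or more it was above 1 for 37.5%, against 44.1%. The part of GC in these levels was not tested.

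**Figure D3:**
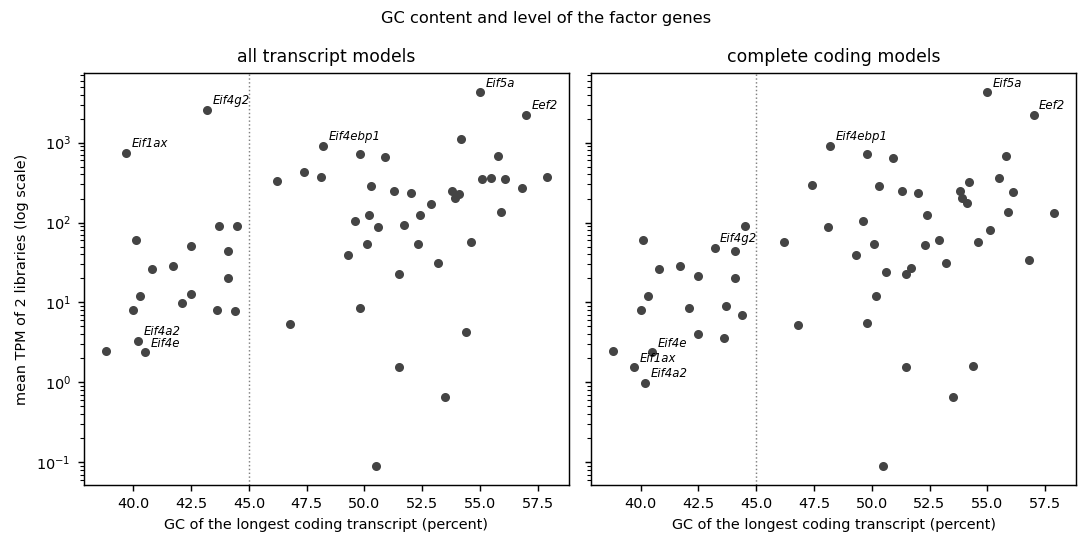
Mean TPM over 2 libraries on a log axis against the GC percent of the longest coding transcript for 59 factor genes, with all transcript models on the left and complete coding models on the right; the dotted line marks 45% GC. Eif1ax and Eif4g2 stand high among low-GC genes on the left and drop to 1.55 and 48.4 TPM on the right.

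Several of these levels depended on which transcript models carry the reads. A complete coding model is a transcript that M21 annotates as protein-coding with no missing end, and this measure was chosen after the values were seen. The leading transcript, the one with the highest mean share of the gene's TPM, was not annotated as coding for 12 of 57 detected factor genes (21.1%), against 19.7% of detected protein-coding genes, shares that are close. It was a retained intron for 6 genes, a processed transcript for 5 and not in M21 for 1. Of the 59 genes above 0 TPM, 34 had at least 95% of their TPM on complete coding models in both libraries and 14 had under 50% in both. For the counts of 34 and 14 genes no share over all protein-coding genes was taken. Complete coding models took 69.2% of the summed factor TPM in replicate 1 and 68.5% in replicate 2, but 85.1% and 86.4% of the counts, since TPM divides counts by length. Over all protein-coding genes these shares were close to those of the factors, at 65.2% and 67.5% of TPM and 82.5% and 83.0% of the counts. Eef1akmt3, Eef1b2, Eef2kmt, Eif1ad, Eif4a2 and Eif4enif1, like Eif2a, Eif2b4 and Eif5b, overlap a gene with a substantial count on the opposite strand, and reads of such pairs may be mixed.

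**Figure D4:**
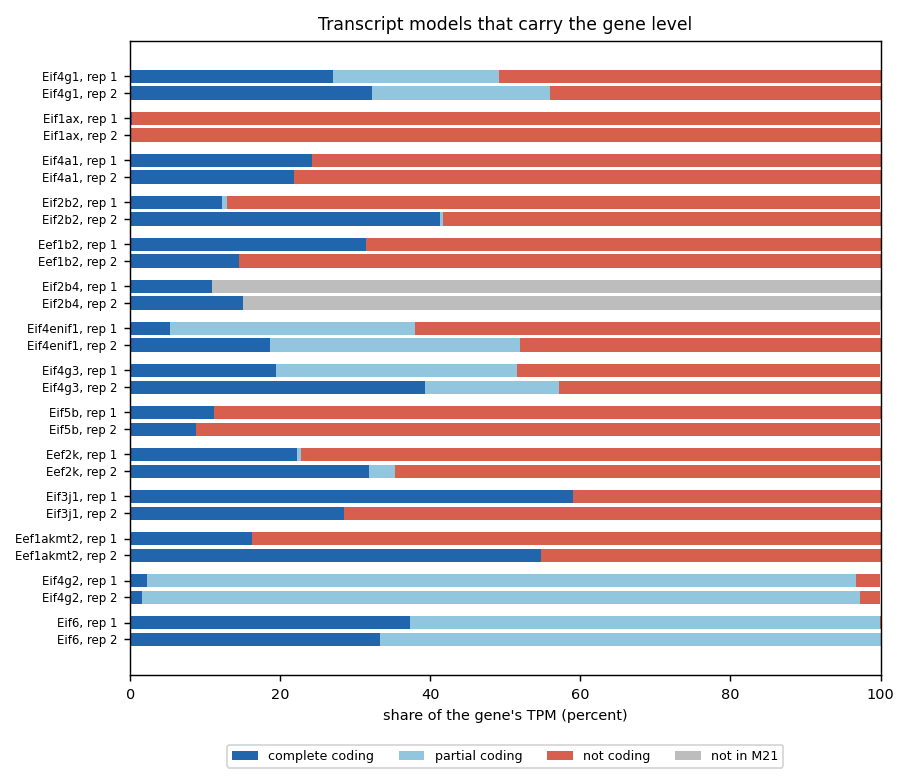
Share of the gene's TPM, in percent, on each class of transcript model, for the 12 factor genes whose leading transcript is not annotated as coding and for Eif4g2 and Eif6, with replicate 1 above replicate 2. Complete coding models hold 0.266% and 0.149% of Eif1ax, 2.28% and 1.53% of Eif4g2, and 11.2% and 8.75% of Eif5b.

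Among the 8 most abundant genes, single complete coding models carried nearly all of Eef2, Eif4ebp1, Eif3f and Eif3g. Eif5a split between 2 complete coding models, Eif5a-210 with 65.7% and 73.1% and Eif5a-213 with 29.6% and 21.8%. Eif4g1 was led by Eif4g1-211, a processed transcript of 626 bases with 40.5% and 35.9%, ahead of the coding Eif4g1-202 of 5394 bases with 24.1% and 23.7%. By counts the order was the other way, with 14463 and 7334 counts on Eif4g1-211 and 96384 and 53161 on Eif4g1-202. The leading transcript differed between the libraries in 4 genes. In Eif2s2 it was Eif2s2-205 in replicate 1 (47.6%, against 0.250% in replicate 2) and Eif2s2-201 in replicate 2 (87.9%, against 36.6% in replicate 1). In Eif3j1 the coding Eif3j1-201 led in replicate 1 with 59.0% and the processed Eif3j1-202 in replicate 2 with 71.5%. In Eef1akmt2 a retained intron led in replicate 1 with 47.9% and the coding Eef1akmt2-202 in replicate 2 with 40.9%, and in Eef2kmt Eef2kmt-201 led in replicate 1 with 52.8% and Eef2kmt-204 in replicate 2 with 69.1%.

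Genes that act on these factors were largely expressed. Of the eIF2 alpha kinases and phosphatase subunits all 6 were detected, led by Ppp1r15a, a stress-induced phosphatase subunit, with 87.8 TPM in replicate 1 against 138 TPM in replicate 2, and Ppp1r15b, its constitutive relative, with 44.6 and 40.5 TPM. Eif2ak1, which encodes HRI, had 27.1 and 19.4 TPM, of which complete coding models held 4.71 and 3.09 TPM. Of the poly(A) tail binding list all 5 were detected, led by Pabpc1, which bridges the tail to eIF4G, with 1593 and 1252 TPM and Pabpc4 with 1174 and 1035 TPM. By complete coding models they stood further apart, at 1590 and 1249 TPM for Pabpc1 and 276 and 273 TPM for Pabpc4. Paip2b, of the same list, had 0.590 and 0.410 TPM by complete coding models, under the 1 TPM minimum. Of 9 kinases and regulators of cap binding all were detected, led by Mknk2, a kinase of eIF4E, with 463 and 415 TPM and Larp1, a repressor of TOP mRNAs, with 123 and 120 TPM.

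The 7 enzymes of diphthamide, the modified residue of eEF2 that diphtheria toxin attacks, were all detected by gene level. They were led by Dph1 with 96.4 and 73.5 TPM and Dph3 with 28.0 and 35.1 TPM (11.7 and 27.2 TPM by complete coding models). Dph7, with 0.320 and 0.860 TPM, and Dnajc24, with 0.530 and 0.310 TPM, were under the 1 TPM minimum by complete coding models. Of 9 termination and recycling genes 7 were detected. Gspt1, which encodes the release factor eRF3, had 276 and 227 TPM. Denr, a recycling factor, had 195 and 172 TPM, of which complete coding models held 9.72 and 4.71 TPM, while Gspt2 had 0 counts and Mcts1, the partner of Denr, 1.40 and 0.440 TPM. Of 3 scanning helicases 2 were detected: Ddx3x had 9.83 and 19.7 TPM and Dhx29 7.43 and 7.18 TPM.

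The erythroid label was checked against markers. All 10 erythroid genes were detected, with Gata1 at 1498 and 2430 TPM (replicates 1 and 2), Klf1 at 479 and 376 TPM and Hbb-bs at 7940 and 7235 TPM. Gata1 was restored in these cells by design, so its detection does not check the label. Complete coding models held 11.1 and 6.83 TPM of Hbb-bs. Of 4 megakaryocyte genes 2 were detected, with a summed level of 50.5 and 66.3 TPM. None of 5 granulocyte and macrophage, 3 T cell, 3 B cell, 3 fibroblast and 3 endothelial genes was, with summed levels of at most 0.540 and 0.630 TPM per list. In total replicate 1 had 68901065 estimated counts, against 51923116 for replicate 2.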

How the data were processed

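Each library had a gene table and a transcript table. Expected counts, which are estimated counts and need not be whole, TPM, FPKM and the isoform share in percent of the gene's TPM were deposited by the authors, per the file headers. Quantification used mm10 with GENCODE M4, per the labels and readme text. The aligner, the quantifier and any use of strand were not given in the sources used here, which leaves genes overlapping on opposite strands uncertain. Names, classes, GC content and shared 31-base words came from GENCODE M21 (same build), matched by identifier without version for 42462 genes.

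Detected means 1 TPM or more in both libraries. Levels are means and SDs over both. Counts were rounded and scaled by TMM in edgeR 4.0.16 on 10863 genes at 10 or more counts on average, and ratios have exact intervals from scipy 1.17.1 that cover counting error only. PCR reads are not independent molecules. Values were named for the 3 highest genes of each factor group and all of small groups, paralog pairs, subunits of eIF2, eIF2B, eIF3 and eEF1, genes under 1 TPM, genes past 2-fold, the 2 highest of each related list with any under 1 TPM, and for isoforms the 8 highest genes and those whose leading transcript differed. Eif2ak1 and some markers were named in addition. The genes and lists were chosen with earlier results of these data known. Alternatives were other TPM minimums, FPKM, posterior mean TPM, rescaled TPM, other scalings and count minimums, DESeq2 1.42.0 size factors, each library alone, and complete coding models.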

Additional observations from a re-analysis of the deposited data

How the results depend on the processing

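Detection of the factor genes stayed between 51 and 58 of 63 under every alternative run. Their summed TPM was 2.07% and their median 92.9 TPM when TPM was rescaled without globin, mitochondrial and rRNA-like genes, and 1.36% and 39.5 TPM by complete coding models, an alternative chosen after seeing the data. Each library alone gave a median of 82.6 to 85.0 TPM. The eIF3 spread, as a mean of both libraries, was 94.4 by posterior mean TPM and 108 by complete coding models, and 78.7 to 118 in each library alone. Genes past 2-fold between the libraries numbered 4 to 7, and 13 at 1.5-fold, a looser limit by construction. By complete coding models Eif1ax over Eif1a was 0.196 and Eif4g2 over Eif4g1 0.149, both reversed, and Eif4g2 over Eif4g1 was 0.606 in CPM, which do not divide by length. DESeq2 size factors moved the log2 ratios by -0.01. Complete coding models moved 21 of 63 gene levels by more than the SD of the libraries. That count depends on the SD as well as on the size of the change. Eef1b2, which went from 334 to 56.4 TPM with an SD of 340, was not among the 21. Eif4e2, which went from 39.6 to 39.5 TPM with an SD of 0.0636, was. No paired analysis was possible because the libraries form 1 group. At this depth counting error limits genes such as Eif4ebp3 and Eef1akmt1, whose intervals span more than a factor of 2, and not the abundant ones.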
